A study of Mus musculus with 2 samples.

Results

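The SR protein genes encode the serine/arginine-rich splicing factors. The 10 members, Srsf1, Srsf2, Srsf3, Srsf4, Srsf5, Srsf6, Srsf7, Srsf9, Srsf10 and Srsf11, were taken by symbol from the 55450 genes of the transcript annotation, and the TPM of each was split among its protein-coding, nonsense-mediated decay (NMD) and retained-intron transcripts. RNA came from the nucleoplasm of bone-marrow-derived macrophages, primary cells grown from the marrow of C57BL/6J mice, and was sequenced after removal of ribosomal RNA. All cells had been stimulated for 90 min with 100 ng/ml of lipid A, the TLR4-activating portion of lipopolysaccharide. There is 1 group of 2 biological replicates, made from 1 µg of RNA for replicate 1 and 500 ng for replicate 2. The labels tie both to the same donor entry and give no sex or age, so the spread between the libraries may be partly technical, and no contrast or p-value can be formed from them.

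SR proteins carry an RNA recognition motif and a tail rich in arginine and serine dipeptides. They bind enhancer sequences in exons, help to recruit U1 and U2AF to the neighbouring splice sites, and are phosphorylated by SRPK and CLK kinases. Many limit their own level through a poison exon, whose inclusion brings in a stop codon and exposes the RNA to NMD in the cytoplasm, or through an intron that is kept in the nucleus.

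The poison exons and whole retained introns of the SR genes are part of the RNA that the class shares below rest on. The stretches that define them are shown first. The annotation places, in 6 members, an internal exon of an NMD transcript inside an intron of the member's main coding transcript, with the stop codon in that exon. The main coding transcript is the protein-coding transcript with the highest mean TPM, and its introns are numbered from its 5′ end. Each line runs 5′ to 3′ on the gene's strand, from the first base of the exon to its stop codon, which is in capitals. The positions are on mm10, and the letters are those of the GENCODE M21 transcripts.
Srsf3-201 (chr17:29039454-29039487, plus strand): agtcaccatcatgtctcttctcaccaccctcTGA
Srsf7-203 (chr17:80205054-80205081, minus strand): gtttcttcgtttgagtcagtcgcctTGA
Srsf11-210 (chr3:158024209-158024231, minus strand): ttcttttccctggttcagccTGA
Srsf4-203 (chr4:131884276-131884390, plus strand): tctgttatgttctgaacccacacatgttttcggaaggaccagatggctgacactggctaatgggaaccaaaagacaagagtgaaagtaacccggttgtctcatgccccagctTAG
Srsf6-201 (chr2:162932815-162932966, plus strand): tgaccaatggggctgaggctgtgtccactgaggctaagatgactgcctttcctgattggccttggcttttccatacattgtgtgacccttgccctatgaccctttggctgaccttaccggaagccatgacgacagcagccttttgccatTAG
Srsf9-205 (chr5:115328347-115328428, plus strand): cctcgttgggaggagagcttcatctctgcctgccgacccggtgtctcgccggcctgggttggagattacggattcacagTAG
The reading frame closed after 34 bases of the 456-base exon in Srsf3, 28 of 460 in Srsf7 and 23 of 109 in Srsf11. It ran further in Srsf9 (82 of 358 bases), Srsf4 (115 of 207) and Srsf6 (152 of 268). The stop was TGA in the first 3 genes and TAG in the other 3.

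The retained introns are shown by their ends, for the introns between coding exons that held the most TPM in Srsf3, Srsf5, Srsf6 and Srsf7. Each donor line holds 12 exon and 24 intron bases and each acceptor line 36 intron and 12 exon bases, 5′ to 3′ on the gene's strand, with the first and last 2 bases of the intron in capitals.
Srsf5 intron 5 donor (chr12:80947854-80947889, plus strand): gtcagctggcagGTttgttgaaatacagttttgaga
Srsf5 intron 5 acceptor (chr12:80949059-80949106, plus strand): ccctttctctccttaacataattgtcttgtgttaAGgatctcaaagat
Srsf3 intron 3 donor (chr17:29038613-29038648, plus strand): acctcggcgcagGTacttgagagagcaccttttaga
Srsf3 intron 3 acceptor (chr17:29040739-29040786, plus strand): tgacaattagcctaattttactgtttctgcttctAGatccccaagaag
Srsf6 intron 2 donor (chr2:162932131-162932166, plus strand): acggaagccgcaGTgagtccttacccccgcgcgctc
Srsf6 intron 2 acceptor (chr2:162933390-162933437, plus strand): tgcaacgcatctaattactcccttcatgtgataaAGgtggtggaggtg
Srsf7 intron 3 donor (chr17:80205238-80205273, minus strand): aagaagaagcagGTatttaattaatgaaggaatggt
Srsf7 intron 3 acceptor (chr17:80204376-80204423, minus strand): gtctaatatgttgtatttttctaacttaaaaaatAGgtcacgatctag
Across the 8 members with retained-intron transcripts, such transcripts held 9 whole introns of the main coding transcripts, and all 9 began with GT and ended with AG. The 4 introns shown were 1229 bases long in Srsf5, 2150 in Srsf3, 1283 in Srsf6 and 874 in Srsf7, with a GC content of 36.3%, 39.7%, 48.2% and 35.5%.

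The deposited gene counts summed to 22669533 in replicate 1 and 14939143 in replicate 2. The macrophage label was borne out by the markers: 10 of 10 macrophage markers reached 1 TPM in each library, with medians of 93.0 and 124 TPM, and 0 of 12 markers of other marrow and tissue cells did, with 0.740 TPM as their highest mean. TPM was higher in replicate 2 for most genes, with a median log2 ratio of 0.38 over the 8572 protein-coding genes that reached 1 TPM in each library. Those 8572 genes are the background used throughout. Fold differences between the libraries in gene level are given after scaling of the gene counts by TMM, which removes most of that shift, unless TPM is named.

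All 10 SR genes were expressed, over a range of more than an order of magnitude. Gene levels are TPM of the first quantification, which divides by length. Of the 10 genes, 9 reached 10 TPM in each library, against 37.6% of the background genes. The median SR gene stood at 32.9 TPM in replicate 1 and 38.5 in replicate 2, and the median background gene at 6.62 and 8.68. The relative Srsf12, which is not a member, was at 0 and 0.02 TPM.

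Srsf5, a family member with a pair of RNA recognition motifs (chr12:80945504-80950507), had the highest level, with 298 TPM in replicate 1 and 342 in replicate 2 (320 ± 30.7, SD, n = 2). Srsf11, also called p54, which binds U2AF (chr3:158010473-158036639), followed with 145 and 313 TPM (229 ± 119). Its level in replicate 2 lay within the range of Srsf5 and its level in replicate 1 well below it. Srsf3, the smallest SR protein and an adaptor for mRNA export (chr17:29032628-29043373), had 69.7 and 76.4 TPM (73.0 ± 4.73). Both values lay below those of Srsf11 and above those of every gene that follows.

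Srsf2, also called SC35 and long used as a marker of nuclear speckles (chr11:116849901-116853094), had 36.1 and 45.8 TPM. Srsf6, a paralogue of Srsf4 and Srsf5 (chr2:162931528-162937121), had 37.9 and 39.9 TPM, inside the range of Srsf2. Srsf10, which can act as a repressor of splicing once dephosphorylated (chr4:135855747-135869908), had 29.6 and 37.0 TPM (33.3 ± 5.25). Its higher value came close to the lower value of Srsf6, without overlap, and both of its values lay above those of Srsf7.

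Srsf7, the SR protein with a zinc knuckle (chr17:80200080-80207307), had 27.3 and 24.1 TPM. It was the only member with the lower TPM in replicate 2. Srsf4 (chr4:131873617-131901706) had 21.1 and 25.4 TPM, and Srsf1, the founding member of the family (chr11:88047373-88053755), 17.8 and 27.9. The ranges of these 3 genes overlapped. Srsf9, the closest relative of Srsf1 (chr5:115327177-115333080), was lowest at 5.17 and 6.11 TPM, from 170 and 93 estimated reads, against 16830 and 9473 for Srsf5.

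**Figure D1:**
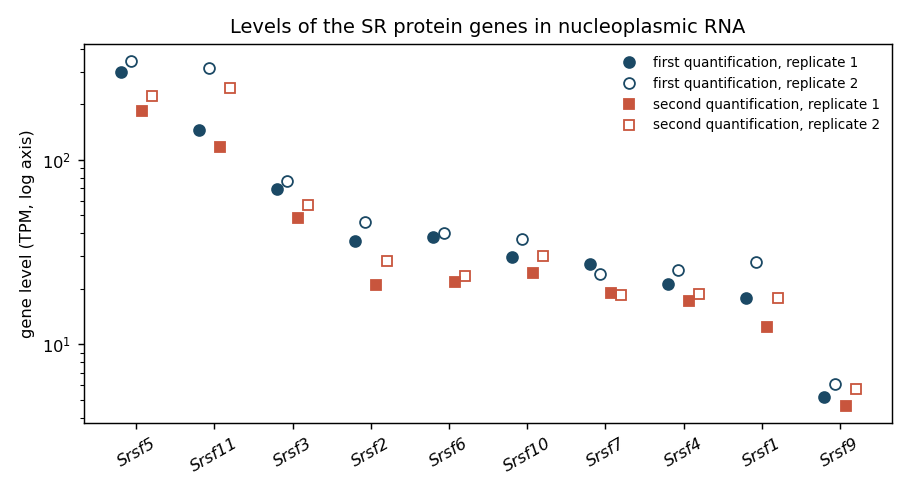
Gene levels of the 10 SR genes in TPM on a log axis, by library (filled, replicate 1; open, replicate 2) and quantification (circles, first; squares, second), 1 point per library with no error bars. Srsf5 and Srsf11 stood highest and Srsf9 lowest in both quantifications, and the second gave the lower level for all 10 genes in both libraries.

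Between the libraries, the SR genes differed by less than 1.5-fold after TMM scaling. None of the 10 passed that fold in either direction, against 2.31% of background genes higher in replicate 2 and 8.64% lower. Srsf11 was the furthest upward, 1.33-fold higher in replicate 2 (log2 0.41), and Srsf7 the furthest downward, 1.44-fold lower (log2 -0.52). Srsf1 was 1.11-fold and Srsf10 1.02-fold higher. The other 6 were 1.05 to 1.26-fold lower, and the median over the members was -0.20 on the log2 scale, against -0.03 over the background.

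These 2 extremes depended on the scale. For Srsf11, TPM was 2.15-fold higher in replicate 2, and 1.66-fold higher once the shift of all genes was taken out. The deposited interval of its TPM was 137 to 147 in replicate 1 and 284 to 307 in replicate 2, and the deposited value for replicate 2, 313 TPM, lies above its own interval. This was not particular to Srsf11, since Srsf5 in both libraries and Srsf6 in replicate 2 also lie above theirs. Counts of the second quantification gave 1.22-fold for Srsf11, and took Srsf7 past 1.5-fold lower, to 0.643 of its level in replicate 1. Srsf10 was the only member higher in replicate 2 by TMM on first-quantification counts that lay lower by centred TPM (log2 -0.05), and both Srsf10 (log2 -0.11) and Srsf1 (log2 -0.02) lay lower by second-quantification counts.

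Less of the SR genes' TPM lay in protein-coding transcripts than in the background. The class shares are percentages of a gene's summed transcript TPM in the second quantification. The median coding share of the 10 genes was 26.4% in replicate 1 and 35.6% in replicate 2, against 53.5% and 54.2% for the background. That background is not limited to genes with retained-intron or NMD transcripts, as those that follow are (5581 and 2726 genes). How far the annotation enters the coding gap was not tested. The median retained-intron share was 44.6% and 47.8% over the 8 members with such transcripts, against 38.8% and 39.4% over the background genes that have them. The median NMD share was 12.2% and 8.38% over the 9 members with NMD transcripts, against 8.25% and 7.17%. Reads from unspliced precursor RNA and from an annotated retained-intron transcript cannot be told apart in these tables.

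Srsf11, Srsf7 and Srsf3 were the 3 of 8 members with over 50% of their TPM in retained-intron transcripts in both libraries. Among background genes with such transcripts, 28.5% were over that share, so the members' count rests on few genes and is not far from the background. Srsf11 had 73.2% in replicate 1 and 73.1% in replicate 2, and Srsf7 71.0% and 64.6%. Srsf3 had 60.0% and 58.3%, and its coding share, 7.15% and 10.1%, was the lowest of the family. In each of these 3 genes the coding share was higher in replicate 2, while the retained-intron share stayed the largest class.

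The other 5 members with retained-intron transcripts lay under 50% in both libraries. Srsf2 had 41.4% and 49.7% of its TPM there, and Srsf5 40.3% and 37.8%. Srsf4 went from 34.2% in replicate 1 to 45.9% in replicate 2, and Srsf6 from 47.7% to 31.7%. Srsf6 was thus the least repeatable member (39.7 ± 11.3%, SD, n = 2), and its coding share moved the other way, from 28.4% to 40.9%. Srsf1 had the lowest mean retained-intron share of the 8, with 31.4% and 34.3%, although Srsf6 was lower in replicate 2. Srsf1 also had the highest coding share of the 10 genes, 61.1% and 52.3%, and stayed highest by estimated counts. In the first quantification Srsf9 was higher, with 85.9% and 82.7% against 71.0% and 56.8% for Srsf1. Over the 3 classes only, Srsf9 and Srsf10 were both higher than Srsf1.

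The member nearest above the 50% threshold was Srsf3 and the nearest below it Srsf2. Srsf9 and Srsf10 have no annotated retained-intron transcript, so their share of 0 comes from the annotation. Their remaining TPM lay in processed transcripts, which carry no open reading frame in the annotation: 36.2% and 42.8% for Srsf9, and 66.3% and 62.7% for Srsf10. The same class took 41.0% and 45.3% of Srsf5 and 20.6% and 23.2% of Srsf3. These shares depended on the measure. In the first quantification they were 1.35% and 17.3% for Srsf9, and 55.6% and 51.3% for Srsf10. There, Srsf5 had 33.3% and 35.1%, and Srsf3 2.37% and 0.890%. By estimated counts they were 32.6% and 41.2% for Srsf9, and 23.5% and 21.8% for Srsf10. Srsf5 had 14.5% and 17.1% by counts, and Srsf3 2.45% and 3.07%.

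NMD transcripts held more than 10% of the TPM in both libraries in Srsf4, Srsf6 and Srsf11, 3 of the 9 members that have them, against 36.2% of background genes with NMD transcripts, a like share. Srsf4 was highest with 41.8% and 31.5%, followed by Srsf6 with 23.95% and 27.4%. This order depended on the measure. In the first quantification Srsf4 had 20.3% and 15.9%, below Srsf6 with 20.6% and 20.1%. By estimated counts Srsf4 (15.97% and 10.7%) was above Srsf6 (13.4% and 15.4%) in replicate 1 only. Srsf11 had 13.4% and 11.98%, nearly all of it in the 397-base Srsf11-210. Its share was 2.05% and 1.34% in the first quantification, 2.18% and 2.08% by estimated counts, and 1.33% and 0.290% without transcripts of effective length under 200, so it passed 10% in none of these 3. In the first quantification Srsf3 (16.7% and 12.5%) passed in its place. In Srsf1 (7.52% and 13.4%), Srsf3 (12.2% and 8.38%) and Srsf9 (14.4% and 6.41%) the share crossed 10% between the libraries. Srsf2 (6.18% and 6.72%), Srsf7 (4.58% and 1.46%) and Srsf5 (0.138% and 0.156%) stayed under it.

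**Figure D2:**
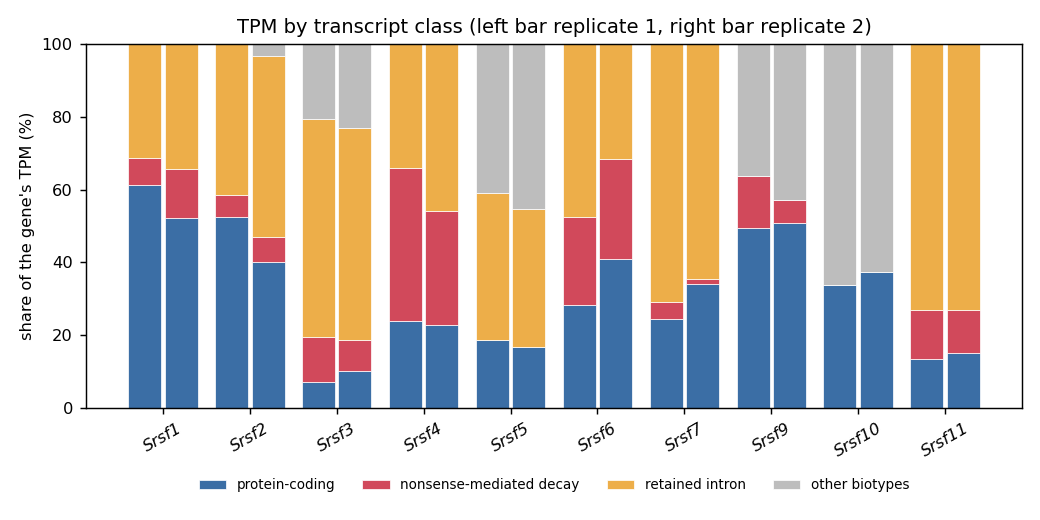
Share of each SR gene's TPM in protein-coding, NMD, retained-intron and other transcripts, in percent, second quantification; the left bar of each pair is replicate 1 and the right bar replicate 2. The retained-intron part exceeds 50% in both bars of Srsf3, Srsf7 and Srsf11, and Srsf9 and Srsf10 have none.

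**Figure D3:**
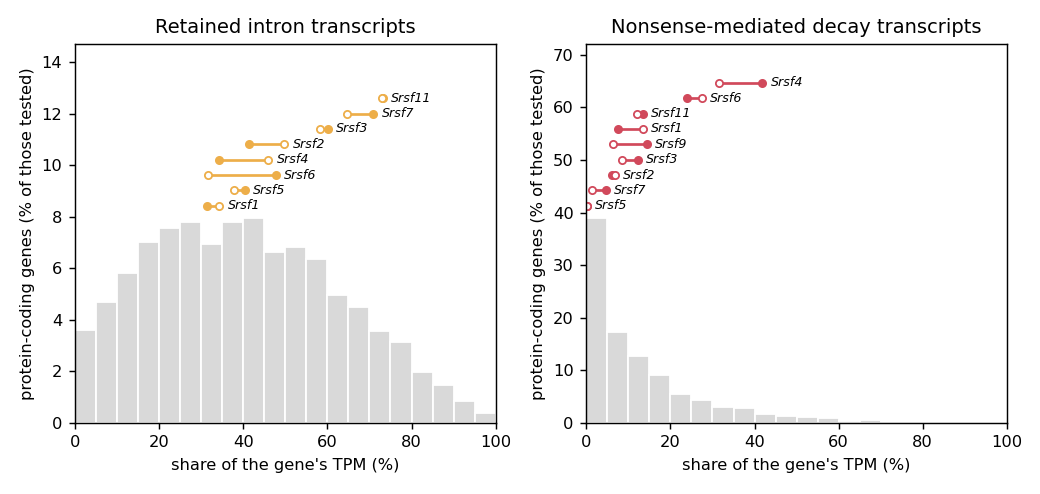
Background genes by mean share of TPM in retained-intron (left, 5581 genes) and NMD transcripts (right, 2726 genes), grey bars in percent of genes, with each SR gene that has such transcripts drawn above as a line from replicate 1 (filled) to replicate 2 (open); the height of the lines only separates them. The SR genes spread across the middle and upper part of the retained-intron distribution, and Srsf4 and Srsf6 lie in the upper part of the NMD distribution.

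The same split was also read from estimated counts, which are not divided by length, so longer transcripts weigh more in them. By counts, Srsf1 was mostly coding, 91.5% of reads in replicate 1 (95% Wilson interval 90.2 to 92.8, counting error only) and 87.9% in replicate 2 (86.3 to 89.4). Srsf5 had 69.5% and 67.9% of its reads in retained-intron transcripts, and Srsf4 56.2% and 66.2%, which brought the number of members above 50% to 5. Background genes above 50% were not counted on this scale. The median retained-intron share over the 8 members was 61.9% and 62.5% by counts, against 25.8% and 26.9% in the background, so the gap to the background was wider than by TPM. The part of transcript length in that wider gap was not tested. For Srsf4 the first quantification went the other way, with 26.0% and 23.1% of TPM in its retained-intron transcript and 53.7% and 60.9% in coding RNA.

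Of the members' 85 annotated transcripts, 76 had TPM above 0 in at least 1 library. Of the 26 retained-intron transcripts, 8 hold a whole intron of the main coding transcript, and these 8 carried 50.5% of the members' retained-intron TPM in replicate 1 and 36.6% in replicate 2. In Srsf2, Srsf5 and Srsf6 all of the retained-intron TPM was in whole-intron transcripts, in Srsf7 69.1% and 57.6%, and in Srsf3 48.9% and 40.2%. In Srsf1, Srsf4 and Srsf11 none was.

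Srsf5 intron 5, whose ends are shown above, was held whole by 3 transcripts with a summed 74.1 TPM in replicate 1 and 83.9 in replicate 2. Srsf5-212 alone had 60.8 and 70.4 TPM, against 15.5 and 17.5 for the main coding Srsf5-201. All coding transcripts of the gene together had 34.2 and 37.0 TPM. In the first quantification the coding Srsf5-202 (33.3 and 36.5 TPM) was above Srsf5-201 (26.2 and 30.8). A transcript that is not protein-coding was linked to an intron if it has exon bases there outside every exon of the gene's coding transcripts. Transcripts linked to intron 5 held 68.0% and 67.9% of the gene's TPM. No annotated NMD transcript of Srsf5 has an exon inside this intron, and the highest NMD transcript, Srsf5-208, had 0.254 and 0.346 TPM.

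In Srsf3, intron 3 (chr17:29038625-29040774) was held whole by Srsf3-204, with 14.1 and 13.4 TPM. The same intron holds the poison exon of Srsf3-201, with 5.88 and 4.78 TPM. Both exceeded the main coding Srsf3-202 in replicate 1 (3.44 TPM), and in replicate 2 (5.78 TPM) only Srsf3-204 did. The single-exon Srsf3-210, which runs through exon 1 into intron 1, had 10.2 and 17.2 TPM. The processed transcript Srsf3-209 had 9.94 and 13.2 TPM in the second quantification but 1.65 and 0.68 in the first.

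Srsf6 showed the same arrangement in intron 2 (chr2:162932143-162933425). Srsf6-204, which holds it whole, had 10.4 TPM in replicate 1 and 7.44 in replicate 2, and the poison-exon transcript Srsf6-201 had 5.22 and 6.44. The coding Srsf6-203 had 6.18 and 9.42, so the order of Srsf6-204 and Srsf6-203 changed between the libraries. Together, the 2 transcripts that are not protein-coding took 71.6% and 59.1% of the gene's TPM.

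In Srsf7, intron 3 (chr17:80204388-80205261) was held whole by Srsf7-207 and Srsf7-206, with a summed 9.33 and 6.86 TPM. The poison-exon transcript Srsf7-203, in the same intron, had 0.871 and 0.269 TPM. The main coding Srsf7-201 had 1.40 and 3.13 TPM, below Srsf7-207 alone (8.08 and 5.68) in both libraries. All coding transcripts of the gene together had 4.66 and 6.28 TPM, which is above Srsf7-207 in replicate 2.

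**Figure D4:**
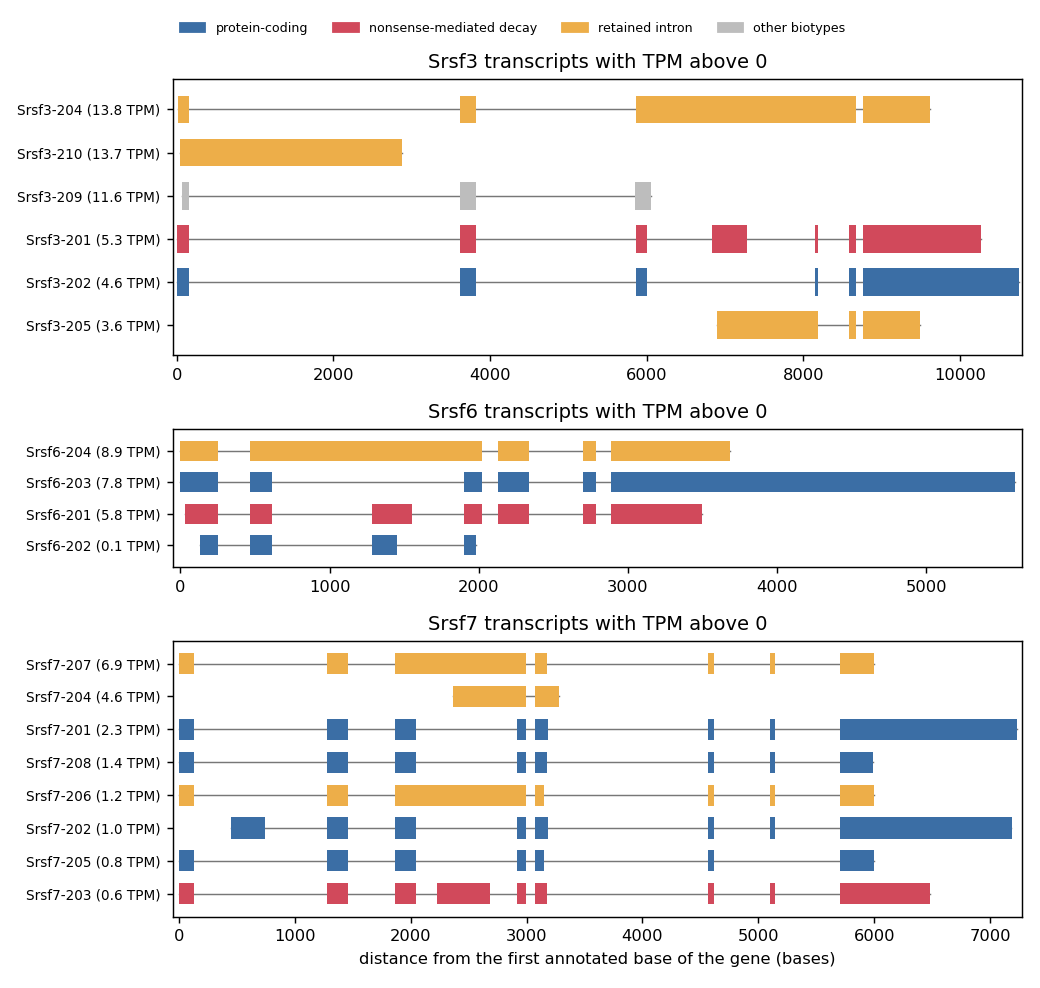
Exons (boxes) of the Srsf3, Srsf6 and Srsf7 transcripts with TPM above 0, coloured by class and ordered by mean TPM of the second quantification, against the distance in bases from the first annotated base of the gene, in the direction of transcription. In each gene a whole retained intron spans the place of the poison exon of the NMD transcript.

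In most of the family an NMD exon lay in the intron with the most linked TPM, with or without a whole retained intron. The intron with the most linked TPM, as defined for Srsf5, was taken for each member. It was also the site of an exon belonging to an NMD transcript in 7 of 10 genes, namely Srsf2, Srsf3, Srsf4, Srsf6, Srsf7, Srsf9 and Srsf11. A retained-intron transcript held that intron whole in only 4 of these, Srsf2, Srsf3, Srsf6 and Srsf7, and in Srsf2 the exon carries no stop and its NMD transcript, Srsf2-202, was close to 0 TPM. The exception of Srsf5 was named above, and Srsf1 and Srsf10 were the others. Srsf10 has no annotated NMD transcript and could not qualify. No NMD transcript of Srsf1 has an internal exon inside an intron of the main coding transcript. The description rests on which transcripts are annotated, was made after the values were seen and has no background count, since NMD transcripts themselves add to the TPM of that intron.

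The linked TPM in that intron was 76.0% and 77.4% of the gene for Srsf4 (intron 1, 17336 bases) and 75.5% and 66.0% for Srsf7. Srsf3 had 71.6% and 59.8%, and Srsf11 64.7% and 51.8% (intron 2, 3774 bases). Srsf9 (intron 1) had 50.5% and 49.2%, Srsf10 (intron 2) 48.4% and 54.4%, and Srsf2 (intron 2) 41.4% and 53.1%. Srsf1 (intron 2) had the least, 23.9% and 11.6%. The first quantification gave less for Srsf4, 46.3% and 39.1%, for Srsf9, 14.1% and 17.3%, and for Srsf1, 8.90% and 5.42%. By estimated counts the value for Srsf1 was 4.43% and 2.28%, and that for Srsf10 20.6% and 20.4%.

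In Srsf4 the NMD transcripts Srsf4-203 (4.11 and 3.79 TPM) and Srsf4-204 (3.07 and 2.08 TPM) share the middle exon of intron 1, at chr4:131885309-131885492. The retained-intron transcript Srsf4-201 had 5.87 and 8.54 TPM, and the coding Srsf4-202 4.11 and 4.21. The unclassified gene A930004J17Rik lies in Srsf4 on the same strand over 4610 bases, and had 16.1 and 26.2 TPM. Reads from the overlap may go to either gene, and how far this enters the Srsf4 split was not tested. In Srsf2, Srsf2-203 with its whole intron 2 had 8.67 and 14.0 TPM and the coding Srsf2-201 10.3 and 10.6. The NMD transcript Srsf2-204 had 1.29 and 1.89 TPM. Mettl23 overlaps Srsf2 on the opposite strand over 3194 bases (1.77 and 3.10 TPM) and Mfsd11 over 655 (9.79 and 13.5 TPM). Whether counting used the strand is not given in the sources used here, so these cannot be told apart from Srsf2 where they overlap.

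Srsf1, Srsf9 and Srsf10 remain. Srsf1-201, the main coding form, had 5.70 and 5.65 TPM. Its retained-intron transcript with the highest mean, Srsf1-206, had 2.97 and 2.07 TPM, and Srsf1-203 had 0.923 and 4.04, so their order changed between the libraries. Of its NMD transcripts, Srsf1-204 had 0.934 and 2.39. Srsf9-201 had 2.28 and 2.72 TPM, and the poison-exon transcript Srsf9-205 0.664 and 0.364. For Srsf10, the coding Srsf10-204 had 4.22 and 3.85 TPM, below the 717-base processed transcript Srsf10-207 with 9.15 and 13.6.

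Srsf11 differed most in TPM between the libraries, and the difference lay in a few of its 19 transcripts. Its summed transcript TPM in the second quantification was 126 higher in replicate 2. Srsf11-211, a 521-base retained-intron transcript, went from 13.5 to 62.8 TPM and made 39.1% of the gain. Srsf11-203 went from 14.5 to 38.7, the coding Srsf11-202 from 7.81 to 23.5, and the poison-exon transcript Srsf11-210 from 14.2 to 28.4. The 4 together made 82.0% of the gain.

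These are unscaled TPM values, which still hold the shift of all genes between the libraries. The other transcripts differed in both directions. Srsf11-208 went from 20.4 to 33.0 TPM, Srsf11-214 from 2.35 to 8.24 and Srsf11-209 from 1.91 to 5.77. Srsf11-213 (17.3 and 17.5 TPM) and Srsf11-218 (7.89 and 7.55) were nearly level on this scale, and Srsf11-206 was lower in replicate 2 (1.37 and 0.624). In the first quantification, the deposited intervals of Srsf11-211 were 6.65 to 14.5 TPM in replicate 1 and 58.0 to 79.2 in replicate 2, and those of Srsf11-213, 32.3 to 36.6 and 31.3 to 41.9, overlapped. Srsf11-210 was at 0.78 and 2.54 TPM there, so its level depended on the quantification. For Srsf11-209 the direction did too, with 0.70 TPM in replicate 1 and 0.33 in replicate 2 of the first quantification. A short transcript needs few reads for a high TPM: Srsf11-211 had 254 and 859 estimated reads. The unclassified gene Gm43362 overlaps Srsf11 on the same strand over 2470 bases, with 6.16 and 10.9 TPM, and its part in the Srsf11 values was not tested.

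**Figure D5:**
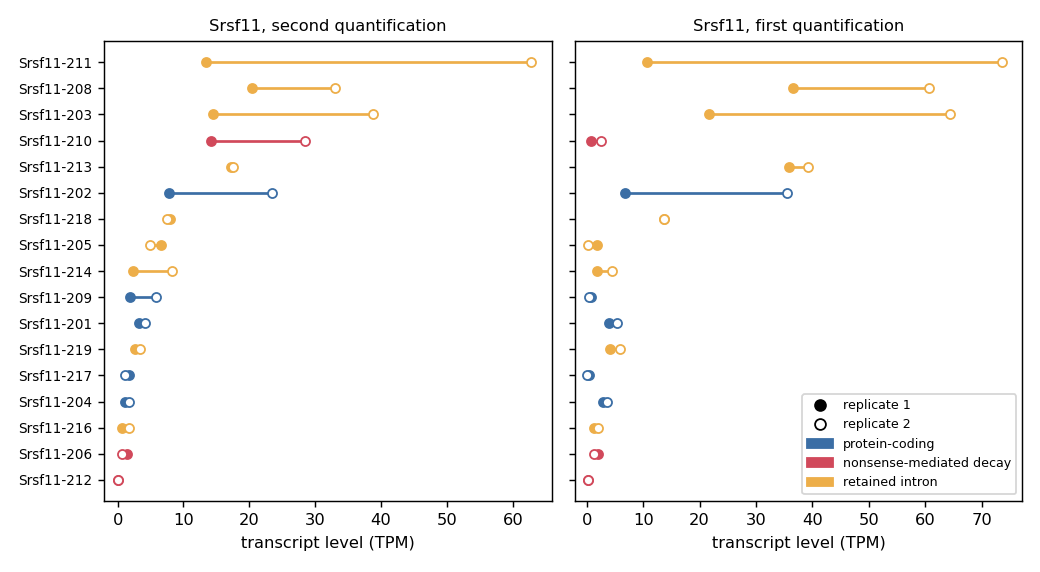
Levels in TPM of the Srsf11 transcripts above 0 in the second (left) and first (right) quantification; filled points are replicate 1, open points replicate 2, and colours give the class. Srsf11-211, Srsf11-203 and Srsf11-202 are higher in replicate 2 in both panels, and Srsf11-213 stays nearly level.

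The same split was read for genes whose products act with the SR proteins. Of the 7 kinases and import factors, 5 had over 50% of their TPM in retained-intron transcripts in both libraries, with a median of 55.9% and 58.2%. Over that threshold were 28.5% of background genes with such transcripts. The kinases and import factors have a median of 6 annotated retained-intron transcripts, against 2 in that background and 2.5 for the SR genes. How far this enters their shares was not tested. Srpk1, which loads phosphate onto SR tails in the cytoplasm, had 73.7% and 73.9%, Clk1, a nuclear SR kinase, 58.8% and 58.3%, and Tnpo3, the import receptor, 59.5% and 58.2%. Among the 5 U1 and U2AF genes, 3 did: U2af2 (68.7% and 84.8%), Snrnp70 (66.5% and 72.7%) and U2af1 (65.1% and 57.4%).

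Of 16 SR-related genes with such transcripts 4 passed, with Arglu1 (69.6% and 74.7%), Luc7l (67.4% and 63.0%) and Srrm1 (60.4% and 58.2%) highest, and the median was 40.8% and 41.2%. For the hnRNP genes, many of which oppose SR proteins, 3 of 17 passed, Hnrnpll (77.0% and 82.2%), Hnrnpl (66.4% and 71.3%) and Hnrnpa2b1 (59.2% and 66.1%), and the median was 31.6% and 39.2%, with a median coding share of 55.3% and 54.8%. Of the NMD and exon junction factors, 4 of 8 passed, with Smg9 (79.0% and 92.1%), Smg5 (65.3% and 61.4%) and Rbm8a (53.4% and 59.6%) highest. The lists are short, and 28.5% of background genes with such transcripts passed. By TPM, the 3 of 8 SR genes stood between the hnRNP genes and the kinases. By estimated counts, 5 of the 8 SR genes passed, and the other lists were not counted on that scale. Median retained-intron shares by counts were 61.9% and 62.5% for the SR genes, and 57.1% and 62.7% for the kinases and import factors. They were 64.2% and 81.8% for the U1 and U2AF genes, and 34.4% and 40.3% for the NMD and exon junction factors. SR-related genes had 27.7% and 28.6%, and hnRNP genes 22.0% and 16.3%. No test was made between the lists.

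Among 976 other protein-coding genes that reached 10 TPM in each library, with transcripts of all 3 classes, the split most like that of the SR genes was that of Crlf3, at a distance of 5.33 percentage points over the 6 shares (3 classes in 2 libraries). The distance was taken to the medians over all 10 members, with the annotation's zeros for Srsf9 and Srsf10 included: NMD 9.86% and 7.55%, and retained intron 40.8% and 41.8%. Phrf1 (8.99), the splicing factor Sf1 (9.87), Ergic2 (10.4) and Ano6 (10.8) followed. Against the medians over members with transcripts of each class, Crlf3 (7.998) and Phrf1 (8.04) were about equally near, and Ano6, Ergic2 and Sf1 ranked 8, 34 and 40. Crlf3 had 28.1% and 34.6% of its TPM in coding, 14.4% and 9.07% in NMD and 41.6% and 41.0% in retained-intron transcripts.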

How the data were processed

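Per the labels, 2 ribosomal-RNA-depleted nucleoplasmic libraries were sequenced. The authors deposited, for each, a gene and a transcript table made from a transcriptome alignment (first quantification) and a transcript table made directly from the reads (second quantification), on mm10 with GENCODE M21, per the notes deposited with the files. No label or header names the aligner, the quantifiers or the use of strand (not given in the sources used here). Deposited estimated counts are read numbers that need not be whole. Deposited TPM values are divided by effective length and scaled to the same total in each library. Deposited FPKM served as an alternative level, and the interval bounds deposited with TPM, a signal unit here, appear for Srsf11 only.

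The members and lists were chosen with earlier results of these data known. Named genes were all members, the top transcript of each class in each member, the 3 genes highest in TPM or retained-intron share of each list, and the 5 genes with the nearest split. Exceptions are that list genes chosen for TPM alone and the marker genes are not printed by name. Other transcripts were picked after their values were seen. All 55536 mouse gene identifiers were found in GENCODE M21, and 6 background genes lacked a second-quantification entry. Library ratios used edgeR 4.0.16 (TMM, prior count 2) on estimated counts rounded to whole numbers, with DESeq2 1.42.0 size factors as an alternative, and no p-values. The share and ratio calculations were tested on simulated data. No sample column of another series was present. Depth was 22669533 and 14939143 estimated counts in the first and 30881427 and 27674626 in the second quantification, so a count of 0 allows up to 3 counts, or 0.132 and 0.201 CPM. Alternatives were the other quantification, counts, a 3-class denominator, a minimum effective length of 200, pseudocounts of 0.1 and 1 and leaving out each replicate.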

Additional observations from a re-analysis of the deposited data

How the results depend on the processing

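With 2 libraries of 1 group, no error can be attached beyond the spread between them, and class shares depend on which transcripts are annotated. No paired analysis was possible because the design has 1 group. Over all 10 members, the median coding share was 31.0% and became 43.0% in the first quantification. The median NMD share was 8.71% and became 5.99% in the first quantification, 3.54% by estimated counts, 10.8% over the 3 classes only and 6.71% over transcripts of effective length 200 and above. The median retained-intron share was 41.3% and became 39.7%, 54.5% and 46.6% under the first 3 of these, and 46.2% over members with such transcripts, an alternative chosen after seeing the data. The number of members above 50% retained intron was 3, and became 4 over the 3 classes, with Srsf5 added, and 5 by counts. The number above 10% NMD was 3, and became 5 over the 3 classes, 2 by counts and 2 at effective length 200 and above, both without Srsf11. The median level was 35.7 TPM and became 23.6 TPM in the second quantification, 47.5 by FPKM and 122 with TPM rescaled to protein-coding genes, on which scale replicate 2 was lower (98.0 against 147). The number beyond 1.5-fold was 0, and became 1 by centred log2(TPM + 0.1), 1 by centred log2(TPM + 1), Srsf11 in both, and 1 by second-quantification counts, Srsf7. Leaving out a replicate gave medians of 26.4% to 35.6% coding, 7.55% to 9.86% NMD and 40.8% to 41.8% retained intron, 32.9 to 38.5 TPM, 3 members above 50% retained intron, and 4 above 10% NMD without replicate 1 and 5 without replicate 2. The cause of these shifts was not tested.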
